A study of Mus musculus and Rattus norvegicus with 28 samples.

Results

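The Hippo pathway controls organ size through a pair of transcriptional co-activators, YAP (gene Yap1) and TAZ (gene Wwtr1). When its kinases are active, both proteins are phosphorylated and held in the cytoplasm. When the kinases are inactive, both enter the nucleus and bind TEAD factors, which carry the DNA-binding domain and recognise the core sequence CATTCC. In the heart, YAP and TEAD1 are known for driving cardiomyocyte proliferation before and around birth. Ankrd1, Ccn1 (Cyr61) and Ccn2 (Ctgf) are widely used readouts of YAP activity, and Ccn5 (Wisp2) encodes a CCN protein that lacks the C-terminal domain of the rest of its family. Because YAP and TAZ are regulated by phosphorylation and location, their mRNA levels do not measure their activity.

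These genes, Yap1, Wwtr1, Tead1, Tead2, Tead3, Tead4, Ankrd1, Ccn1, Ccn2 and Ccn5, were followed in perinatal cardiomyocytes. They were taken as a named pathway group, with earlier results of these data known, and make up 10 of 55450 mouse genes and 10 of 32623 rat genes in the files. All 10 passed the expression filter in both species. Mouse cells came from left ventricles of wild-type C57BL/6 animals of both sexes at embryonic day 18.5 (E18.5) and postnatal days 1, 3 and 7 (P1, P3 and P7), with 2 RNA-seq and 2 ATAC-seq libraries per age. Rat cells came from left ventricles of P1 Sprague Dawley animals of both sexes, were plated, and received either 100 nM trichostatin A (TSA), an inhibitor of histone deacetylases, or its solvent DMSO as the control, with 3 RNA-seq libraries each. All cells went through digestion with trypsin and collagenase and a pre-plating step that discards attaching non-cardiomyocytes. The study calls its replicates biological, but how many animals or isolations stand behind each RNA-seq library is not given in the sources used here.

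Levels are gene FPKM, a fragment count scaled to transcript length and library size, summed over the transcripts of a gene. Depth was 29.3 to 37.5 M aligned reads per mouse library and 28.2 to 38.5 M per rat library. The label of cardiomyocytes was checked against marker genes. The summed FPKM of 12 cardiomyocyte markers fell from 27736 to 36067 at E18.5 through 13784 to 21976 (P1) and 7551 to 9200 (P3) to 1081 to 2380 (P7). Over the same ages the sum of 10 fibroblast markers was 475 to 485, 1233 to 1445, 1635 to 1656 and 3046 to 3777. The P7 libraries thus held more summed fibroblast than cardiomyocyte marker RNA, and 2 of the 12 cardiomyocyte markers were under 1 FPKM in at least 1 P7 library. The sum of 9 smooth muscle and pericyte markers was 416 to 552 at E18.5 and 1667 to 1876 at P7. Acta2 held most of it (1161 and 1326 at P7). Of the 9, 5 were called higher and 2 lower at P7 than at E18.5, beside 27.7% of all genes called in either direction. The sum of 8 macrophage markers was 45.3 to 46.5 at E18.5 and 109 to 130 at P7. Of the 6 tested, 1 was called higher and 1 lower, beside the same 27.7% of all genes, and Lyz2 alone went from 9.45 and 10.3 FPKM to 94.8 and 75.7. The sum of 7 erythroid markers fell from 29046 to 35395 at E18.5 to between 4.70 and 41.0 after birth. All 7 erythroid markers were called lower at P1, P3 and P7 than at E18.5, beside 16.2%, 21.9% and 27.7% of all genes called in either direction. The part of that fall in the changes from E18.5 given here was not tested. In bulk RNA, a change in the number of cells of a type and a change in RNA per cell cannot be told apart.

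Promoter sequences were available for 6 of the 10 genes, Yap1, Wwtr1, Tead2, Tead3, Ankrd1 and Ccn1, from RefSeq on GRCm38.p6 (mm10). They are shown because the TEAD core is the letter sequence through which these proteins contact DNA, and because 2 of its holders encode the co-activators themselves. Each line gives the 250 bases before the RefSeq start, 5′ to 3′ on the strand of the gene, all genes shown being on the minus strand. Capitals mark CATTCC or its reverse complement GGAATG. The regions are chr9:8004597-8004846 for Yap1, chr3:57575911-57576160 for Wwtr1 and chr3:145649986-145650235 for Ccn1, and none of them overlaps an annotated exon of its gene.
Yap1: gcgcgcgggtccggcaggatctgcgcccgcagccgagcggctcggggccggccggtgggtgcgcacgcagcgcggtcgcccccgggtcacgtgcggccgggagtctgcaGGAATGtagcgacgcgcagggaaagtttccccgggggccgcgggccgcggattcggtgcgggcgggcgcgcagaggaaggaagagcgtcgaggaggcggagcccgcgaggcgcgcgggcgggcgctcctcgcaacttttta
Wwtr1: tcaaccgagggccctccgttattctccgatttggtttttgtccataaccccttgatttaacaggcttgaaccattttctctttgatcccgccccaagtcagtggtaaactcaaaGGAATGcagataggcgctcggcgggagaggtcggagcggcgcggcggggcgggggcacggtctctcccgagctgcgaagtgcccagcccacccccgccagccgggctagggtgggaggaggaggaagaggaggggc
Ccn1: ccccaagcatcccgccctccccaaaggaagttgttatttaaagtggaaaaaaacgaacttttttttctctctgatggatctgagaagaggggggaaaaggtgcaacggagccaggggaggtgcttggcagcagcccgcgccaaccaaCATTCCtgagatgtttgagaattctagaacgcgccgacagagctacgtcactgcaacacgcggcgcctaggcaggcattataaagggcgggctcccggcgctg

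For Ankrd1 and Tead3 the same windows overlapped exons of longer GENCODE transcripts, so 30 bases around each core are given. The Ankrd1 cores began 210 and 123 bases before the RefSeq start, at chr19:36120037-36120066 and chr19:36119950-36119979, both within the first exon of ENSMUST00000237142.1. The Tead3 window at chr17:28350702-28350731 held a pair of cores separated by 3 bases, and the one at chr17:28350970-28350999 held a single core.
Ankrd1, 210 bases before the start: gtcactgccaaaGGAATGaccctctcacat
Ankrd1, 123 bases before the start: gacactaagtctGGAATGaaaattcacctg
Tead3, 123 bases before the start: gccgggctCATTCCgtaCATTCCggccatc
Tead3, 182 bases before another start: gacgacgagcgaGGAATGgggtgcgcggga

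These genes have 9 promoters in the table, some of them overlapping. Within the 250 bases, 7 of the 9 held the core on either strand, as did 12.6% of all 32851 promoters. The 7 belong to 5 of the 6 genes, and Tead2 is the gene without one. The AP1 site TGANTCA, also searched on both strands, was in 0 of the 9 member promoters and in 6.75% of all promoters. No member promoter held both, so no matches overlapped. A match describes the sequence and does not show that a TEAD factor binds there.

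The co-activators were expressed at similar levels at every age. Yap1 (ENSMUSG00000053110.13, chr9:7931999-8004596) was at 29.8 and 23.0 FPKM at E18.5, 35.1 and 36.4 on P1, 37.8 and 40.2 by P3 and 34.3 and 35.0 by P7. Both E18.5 libraries lay below all 6 postnatal ones. Its log2 fold changes against E18.5, in order of age, were 0.43, 0.56 and 0.39 (SE 0.14), and limma gave adjusted p of 0.0409, 0.0126 and 0.0464, so Yap1 passed the p threshold but not the required log2 fold change of 1. With size factors the changes were 0.24, 0.35 and 0.21, and limma gave adjusted p of 0.188, 0.0608 and 0.207. Without the second E18.5 library they were 0.25, 0.38 and 0.21 (adjusted p 0.136, 0.0411 and 0.171), and without the filter on low levels the adjusted p were 0.152, 0.0683 and 0.158. Wwtr1 (ENSMUSG00000027803.14, chr3:57455649-57575910) was at 44.5 and 28.3 FPKM at E18.5, and its 6 postnatal libraries, at 30.6 to 39.7, all fell between those. Its fold changes against E18.5 stayed within 0.2 on the log2 scale and were not called.

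The balance between both co-activators was compared as a share. Yap1 made up 40.1% and 44.9% of summed Yap1 and Wwtr1 FPKM at E18.5, against 50.1% and 54.3% (P1), 48.8% and 50.5% (P3) and 48.8% and 47.7% (P7). Both E18.5 shares were the lowest of the 8. An exact permutation test over all partitions of the 8 libraries into 4 groups of 2 gave p = 0.0381 for a difference among ages, and 0.0571 after adjustment over the 3 shares tested in mouse. The unadjusted p rose to as much as 0.143, without the second P1 library, when 1 library was left out.

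The TEAD factors, which recruit both co-activators to DNA, were not called between any pair of ages by the gene-level test with all libraries. Tead2 (ENSMUSG00000030796.17, chr7:45215753-45233644) had the highest mean of the 4 at every age. It was at 22.9 and 18.5 FPKM at E18.5, then 43.4 and 24.8 (P1), 30.2 and 32.9 (P3) and 38.05 and 27.7 (P7). Both E18.5 libraries lay below the other 6, and the fold changes of 0.65, 0.59 and 0.63 on the log2 scale missed the adjusted p threshold (0.0817, 0.0957 and 0.0718 by limma), although without the second P1 library the one at P1 was called (1.04, adjusted p = 0.0131). Tead3 (ENSMUSG00000002249.21, chr17:28331671-28350817) ranged from 8.86 to 15.8 FPKM and Tead4 (ENSMUSG00000030353.15, chr6:128224288-128300823) from 1.26 to 2.5, and their fold changes against E18.5 stayed within 0.2 on the log2 scale. Tead4 rested on an estimated 116 to 246 reads per mouse library. At its level the added 1 understates changes, so only large ones could have reached the fold threshold.

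Tead1 (ENSMUSG00000055320.17, chr7:112679318-112906807), the TEAD gene known for its role in the embryonic heart, gave a different picture by gene total and by exon. Its gene FPKM was 2.28 and 9.90 at E18.5, 2.81 and 2.99 on P1, 5.50 and 3.14 by P3 and 3.47 and 3.31 by P7. A single library, the second of E18.5, held the highest value by far, and the first of E18.5 held the lowest. The fold changes against E18.5 were −0.62, −0.21 and −0.45 on the log2 scale, with adjusted p by limma of 0.33, 0.75 and 0.46. At P3 the sign turned positive with TPM (0.023) and without the second P3 library (0.12). At every postnatal age both the sign and the call depended on which E18.5 library was kept. Without the second one the changes were 0.25, 0.66 and 0.42, none called, and without the first one they were −1.48, −1.07 and −1.31, all called (adjusted p 0.00894 to 0.0212).

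In that library 7.24 of the 9.90 FPKM was assigned to ENSMUST00000069256.11, a transcript of 9480 bases, which was at 0.207 to 1.75 in the other 7. Its signal lay in the longest exon, of 8261 bases, where coverage per aligned gigabase was 10.4, against 0.763 in the first E18.5 library and 0.430 to 3.95 after birth. Over the 9 internal exons, 956 bases in all, coverage per aligned gigabase was instead 3.50 and 3.05 at E18.5, then 6.41 and 5.90 (P1), 7.79 and 6.97 (P3) and 7.71 and 7.30 (P7). By internal exons the libraries of each age were close to each other, and both E18.5 libraries lay below all 6 postnatal ones. The difference from E18.5 was then 0.74, 0.97 and 1.00 on the log2(value + 1) scale, the opposite sign to the gene FPKM. The internal exons were examined after the gene values had been seen, and no test was made on them.

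**Figure D1:**
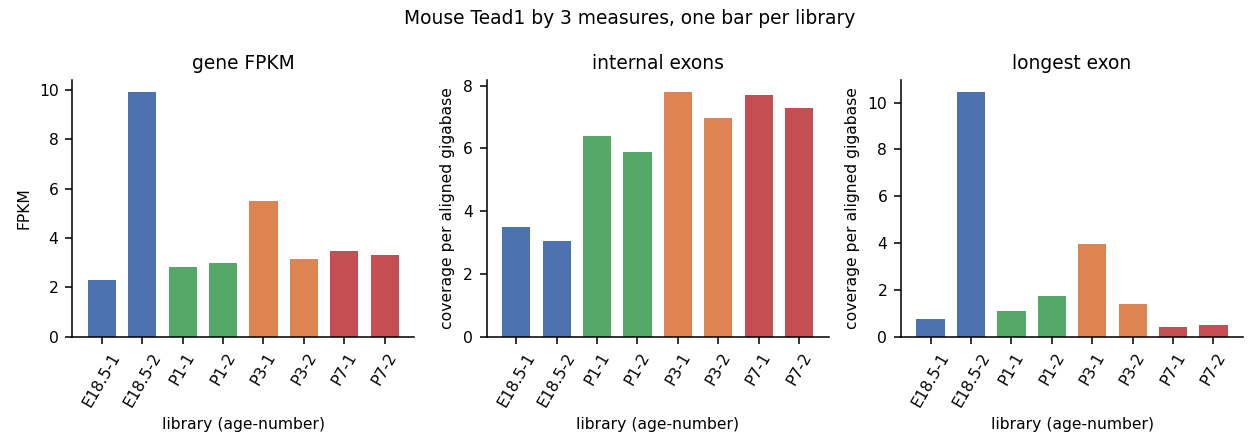
Mouse Tead1 in each library by gene FPKM (left), by coverage of the 9 internal exons per aligned gigabase (middle) and by coverage of the longest exon per aligned gigabase (right), with bars coloured by age. The second E18.5 library is highest by gene FPKM (9.90) and by the longest exon (10.4) but lowest by internal exons (3.05).

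The share of Tead1 in summed Tead1 to Tead4 FPKM was 6.04% and 23.5% at E18.5 and 4.92% to 11.6% after birth. The exact permutation test gave p = 0.724 for a difference among ages. This share uses gene FPKM, where the second E18.5 library stands apart, so it cannot show that the ages were alike. The libraries were made with a kit that does not mark strand, so reads from an overlapping antisense gene would be counted in these levels.

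**Figure D2:**
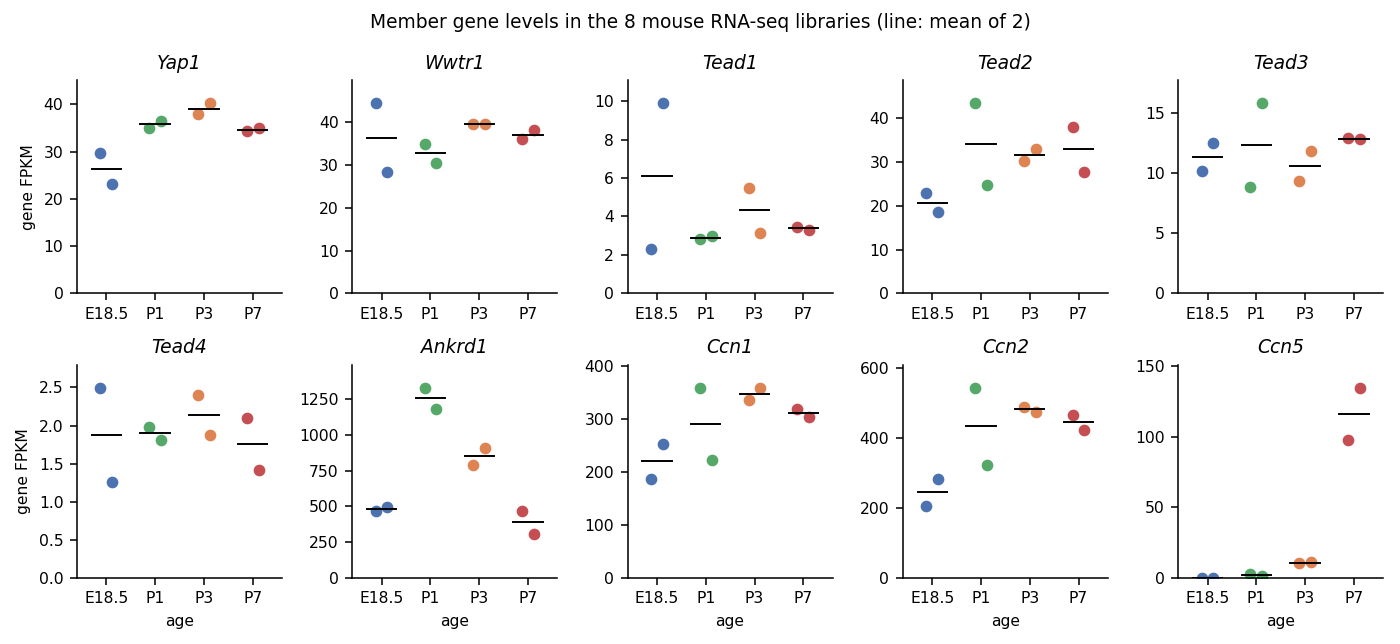
Gene FPKM (vertical axes, each from 0) of the 10 genes at E18.5, P1, P3 and P7, with a point per library and a line at the mean of 2. Ankrd1 peaks at P1 (1331 and 1180), Ccn5 is highest at P7 (97.7 and 135), and the E18.5 libraries of Tead1 stand far apart (2.28 and 9.90).

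Of the 4 targets, Ankrd1 and Ccn5 were called between ages, and Ccn1 and Ccn2 were not. Ankrd1 (ENSMUSG00000024803.9, chr19:36111961-36120099), which encodes a cardiac ankyrin repeat protein of the sarcomere and nucleus, was at 471 and 497 FPKM at E18.5, 1331 and 1180 on P1, 791 and 909 by P3 and 471 and 305 by P7. It rose to P1 by 1.37 on the log2 scale (SE 0.20, adjusted p = 0.00139 by limma) and fell again from P1 to P7 by 1.72 (adjusted p = 0.00129). Its P3 libraries lay between, at 0.81 above E18.5, which passed the adjusted p threshold (0.0111) but not the fold threshold, and which became a call with TPM (1.06). From P3 to P7 it fell by 1.16 (adjusted p = 0.0183 by limma), a call lost when either P3 library or the second P7 library was left out (adjusted p 0.0925 to 0.113). P7 and E18.5 differed by −0.35 (adjusted p = 0.17), and their nearest libraries were at 470.6 and 471.1 FPKM. Without the filter on low levels the fall from P1 to P7 was also lost as a call (adjusted p = 0.0663). Over internal exons the same course was seen, with 509 and 511 at E18.5, then 1495 and 1814 (P1), 1230 and 947 (P3) and 480 and 322 (P7) in coverage per aligned gigabase.

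Ankrd1 was also set beside the markers of the cells it is known from. Per 1000 FPKM of summed cardiomyocyte markers it was at 17.0 and 13.8 at E18.5, 96.6 and 53.7 on P1, 86.0 and 120 by P3 and 198 and 283 by P7. On that scale P7 was the highest age, since the marker sum fell more than Ankrd1 did. Per 1000 FPKM of summed fibroblast markers it was at 972 and 1044 at E18.5, then 1080 and 817 (P1), 484 and 549 (P3) and 155 and 80.8 (P7). The part of cell type content in its course was not tested.

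Ccn1 and Ccn2 encode secreted matricellular proteins that bind integrins and are induced by stretch and serum. Ccn2 (ENSMUSG00000019997.11, chr10:24595442-24598683) was at 207 and 282 FPKM at E18.5, 545 and 324 on P1, 490 and 476 by P3 and 466 and 424 by P7. All 6 postnatal libraries lay above both E18.5 libraries. The log2 fold changes of 0.80, 0.995 and 0.88 (SE 0.24) against E18.5 at P1, P3 and P7 had adjusted p of 0.0312, 0.0104 and 0.0158 by limma, and none exceeded the fold threshold of 1. With TPM in place of FPKM they were 1.04, 1.25 and 1.14 and were called at all 3 ages. Leaving out the second E18.5 library had the same effect (1.02, 1.22 and 1.10), as did leaving out the second P1 library for P1 (1.17) and the second P3 library for P3 (1.02). Other settings went the other way. With size factors the changes were 0.59, 0.78 and 0.69 (adjusted p 0.102, 0.038 and 0.0512), and without the first E18.5 library they were 0.57, 0.77 and 0.65 (adjusted p 0.168, 0.0736 and 0.108). Without the first P1 library the change at P1 was 0.42 (adjusted p = 0.144 by limma), and without the filter on low levels none of the 3 passed the p threshold (adjusted p 0.137 to 0.261). Ccn1 (ENSMUSG00000028195.4, chr3:145646976-145649981) was at 187 and 253 FPKM at E18.5, then 359 and 222 (P1), 335 and 358 (P3) and 319 and 304 (P7). Its fold changes were 0.37, 0.67 and 0.52 on the log2 scale, of which the one at P3 passed the adjusted p threshold (0.0415 by limma), but did not with size factors (0.45, adjusted p = 0.163) or without the first E18.5 library (0.45, adjusted p = 0.216). The E18.5 and P1 libraries of Ccn1 overlapped, and those of E18.5 and P3 did not.

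Immediate early genes, which like Ccn1 and Ccn2 are known to respond to serum and handling of cells, were measured beside them. The summed FPKM of 11 immediate early genes, Fos and Egr1 among them, was 1181 to 1420 at E18.5 and then 341 to 402 (P1), 320 to 401 (P3) and 652 to 765 (P7). Of the 11, 9 were called lower at P1 than at E18.5 and 0 higher, beside 16.2% of all genes called in either direction. Their part in the levels of Ccn1 and Ccn2 was not tested.

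Ccn5 (ENSMUSG00000027656.7, chr2:163820861-163833146) had the widest range of the 10 genes. It was at 0.0827 and 0.153 FPKM at E18.5, 2.69 and 1.32 on P1, 10.2 and 11.1 by P3 and 97.7 and 135 by P7, and no 2 ages overlapped. The E18.5 values rest on an estimated 4 and 9 reads and the P7 values on 5191 and 7631. The log2 fold change against E18.5 was 1.39 at P1 (adjusted p = 0.00324 by limma), 3.38 at P3 (5.1e-05) and 6.70 at P7 (2.9e-06), each with SE 0.24 and each understated by the added 1. It rose further from P1 to P7 (5.31, adjusted p = 0.000139) and from P3 to P7 (3.31, adjusted p = 0.0029). The step from P1 to P3 of 1.99 did not pass (adjusted p = 0.0586 by limma), but did without the first P1 library (2.33, adjusted p = 0.0292). Without the filter on low levels the rises at P1 and from P3 to P7 missed the threshold (adjusted p 0.0566 and 0.0738).

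Among the 3 CCN members, Ccn5 was the lowest at every age but made up more of their total with each age. Its share of summed Ccn1, Ccn2 and Ccn5 FPKM was 0.0210% and 0.0287% at E18.5, then 0.297% and 0.241% (P1), 1.23% and 1.31% (P3) and 11.1% and 15.6% (P7). The exact permutation test gave p = 0.00952, the smallest that the partitions allow, and 0.0286 after adjustment over the 3 shares. Fibroblast markers rose over the same ages, 9 of 10 being called higher at P7 than at E18.5, beside 27.7% of all genes called in either direction. Per 1000 FPKM of summed fibroblast markers, Ccn5 was at 0.171 and 0.323 at E18.5, 2.18 and 0.915 on P1, 6.26 and 6.69 by P3 and 32.1 and 35.7 by P7. The ages kept their order on that scale and did not overlap.

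**Figure D3:**
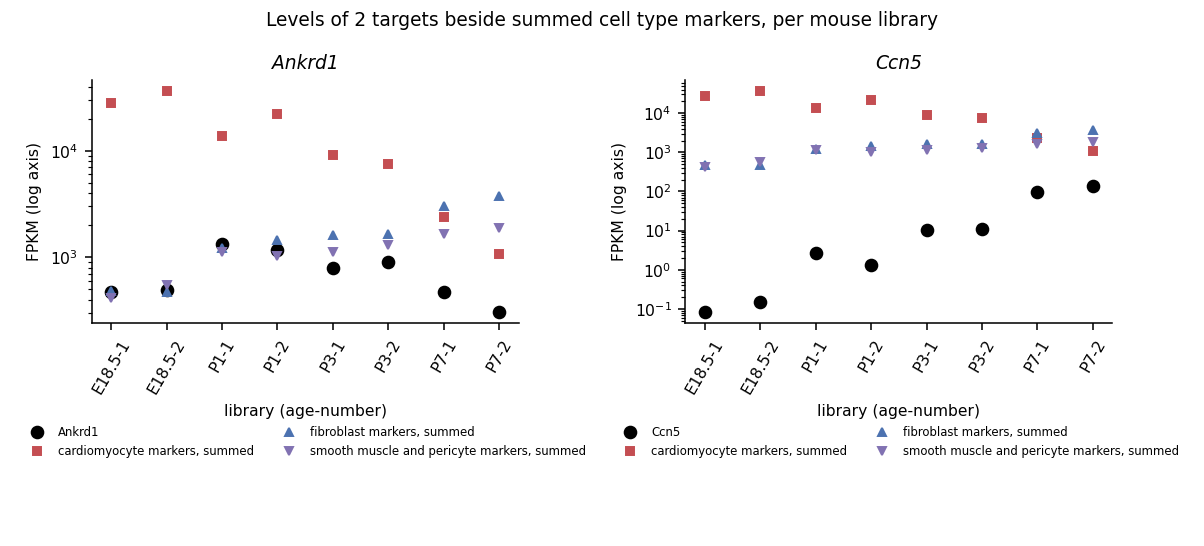
Gene FPKM of Ankrd1 (left) and Ccn5 (right) in the 8 mouse libraries on a log axis, with the summed FPKM of cardiomyocyte, fibroblast, and smooth muscle and pericyte markers. Cardiomyocyte markers fall from 27736 or more at E18.5 to 2380 or less at P7, while Ccn5 climbs from under 0.2 to 97.7 and 135, faster than the fibroblast sum.

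By level, Ankrd1 was the highest of the 10 genes at E18.5, P1 and P3, and Ccn2 the highest at P7, where its libraries overlapped those of Ankrd1. Ankrd1, Ccn2 and Ccn1 held the first 3 places at every age. Yap1, Wwtr1 and Tead2 followed, apart from Ccn5 at P7, and neighbours in that order often did not differ beyond their spread. The libraries of Wwtr1 and Yap1 overlapped at E18.5 and P3, those of Yap1, Tead2 and Wwtr1 at P1, and those of Yap1 and Tead2 at P7. Ccn5 moved from the last place at E18.5 to the fourth at P7.

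In counts of called genes, 2 of the 10 members were called at P1 against E18.5, where 16.2% of the 13979 genes tested were called. At P3 1 of 10 was called (21.9% of all genes), and at P7 1 of 10 (27.7%), so the share of members called was near or below that of all genes in those comparisons. For P7 against P1, 2 of 10 were called with a background of 8.91%, and for P7 against P3, 2 of 10 with 3.55%. Between P3 and P1 limma called 0 of 10 members and 0.0143% of all genes, which is 2 genes. An unadjusted p under 0.05 was reached there by 2 of the 10 members and by 1577 genes, and limma-voom also called 0 members. The called members were Ankrd1 and Ccn5. These comparisons share libraries and are not independent of each other. The median log2 fold change of all genes against E18.5 was 0.15, 0.16 and 0.14 for P1, P3 and P7, and the changes given here are on that scale. With size factors those medians were −0.01, −0.02 and −0.01, and the share of higher calls went from 62.5% to 45.7% at P1, from 59.4% to 45.7% at P3 and from 55.7% to 45.5% at P7.

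Of 16 genes of the Hippo cascade, 4 were called higher than at E18.5 at each of P1, P3 and P7, and 0 lower. That is 25.0% of the list, beside 16.2%, 21.9% and 27.7% of all genes called, and only 2 were called at P1 without the second E18.5 library or with size factors. The list median was 0.30, 0.38 and 0.46 on the log2 scale. By limma, 7, 7 and 11 of the 16 had an unadjusted p under 0.05, beside 7012, 7764 and 8447 of all 13979 genes. The 4 were Stk3 (MST2, a core kinase), Wwc1 (KIBRA, a scaffold that activates the cascade), and Taok3 and Map4k4 (kinases that act on the core kinases). Stk3 was at 5.34 and 4.45 FPKM at E18.5 and 12.5 and 13.9 at P7 (log2 fold change 1.27, adjusted p = 0.000197 by limma). Map4k4 was at 63.2 and 38.9 at E18.5 and 161 and 167 at P7 (1.71, adjusted p = 0.000265).

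Among 9 tested partners of YAP and TEAD, 2 (P1), 3 (P3) and 1 (P7) were called higher than at E18.5, and 0 lower. These are 22.2%, 33.3% and 11.1% of the list beside the 16.2%, 21.9% and 27.7% of all genes, so at P7 the share was below the background. With TPM 4 were called at P1 and 3 at P7, and limma-voom also gave 3 at P7. Vgll3, which encodes a vestigial-like protein that competes with YAP for TEAD factors, was at 0.602 and 0.829 FPKM at E18.5, then 9.98 and 10.9 (P1), 17.2 and 13.0 (P3) and 21.1 and 25.4 (P7). It rose at all 3 ages against E18.5 (2.74, 3.22 and 3.82 on the log2 scale, adjusted p 5.8e-05 to 7.4e-06 by limma) and again from P1 to P7 (1.08, adjusted p = 0.00541). Amot, which encodes angiomotin, a junction protein that retains YAP in the cytoplasm, rose at P1 (1.34) and P3 (1.23). Ptpn14, a phosphatase that binds YAP, rose at P3 (1.08), a call lost with size factors (0.89) and without the second P3 library (0.99).

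Other genes described as YAP targets went mostly upward. Of 16 tested, 7 were called higher and 1 lower at both P1 and P3, and 8 higher and 2 lower at P7, with list medians of 0.90, 0.97 and 0.95. In either direction that is 8 of 16, 8 of 16 and 10 of 16 (62.5%), beside 16.2%, 21.9% and 27.7% of all genes. Without the filter on low levels 5 rather than 8 were called at P1, Crim1 being among those lost (adjusted p = 0.0513 by limma). Axl, a receptor tyrosine kinase, was at 16.0 and 11.9 FPKM at E18.5, 152 and 120 at P1, and 198 and 213 at P7 (log2 fold change 3.2 and 3.8 against E18.5). Myof, a membrane repair protein, was at 2.20 and 1.54 at E18.5 and 33.9 and 22.5 at P1 (3.33), and Crim1, a transmembrane regulator of growth factors, rose by 1.96 at P1. Gadd45a, a stress-response gene, fell by 2.15 at P1, and Nt5e, the ectoenzyme CD73, by 1.48 at P7. Of the other CCN genes, Ccn4 rose at all 3 ages (2.37, 2.56 and 2.88), and Ccn3 was lower at P1 (−1.08) and higher at P7 (1.23). The call of Ccn3 at P1 was lost without the filter, without either E18.5 library and without the second P1 library (−0.60 to −1.18, adjusted p 0.0618 to 0.212 by limma). That at P7 was lost without the filter, without the first E18.5 library and without the second P7 library (1.08 to 1.23, adjusted p 0.0573 to 0.124 by limma). Axl, Myof and Vgll3 rose alongside the fibroblast marker sum, and the part of cell type content in these counts was not tested.

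ATAC-seq peaks marked open chromatin at the promoters. Counted within 2.5 kb of any transcript start, both libraries of an age held a peak for 5 of 10 members at E18.5 (56.7% of the genes tested), 5 at P1 (41.3%), and all 10 at both P3 (87.5%) and P7 (83.2%). In the second P7 list the only Ccn1 peak lay 2452 bases after the start, and with a 1 kb window the P7 count was 9. The members' count and the background were both higher at P3 and P7 than at E18.5 and P1, and the lists differed in length, from 13149 to 95257 peaks. With each list cut to its 13149 top-scoring peaks, both held a peak for 5 (E18.5), 4 (P1), 4 (P3) and 5 (P7) members. The share of all genes at that cut is not given here. Fold enrichment below is the ratio of signal to local background at the summit as the authors' peak caller gave it.

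Ankrd1, Wwtr1, Tead1, Tead4 and Ccn2 held a promoter peak in all 8 lists, as did 36.6% of the genes tested. For Ankrd1 the enrichment was 6.34 and 6.08 at E18.5, 7.92 and 5.38 on P1, 5.32 and 8.81 by P3 and 5.92 and 5.02 by P7, so the ages overlapped except that both P7 values lay below both E18.5 values. A peak covered the farther TEAD core of Ankrd1 in 8 of 8 lists and the nearer one in 7. For Wwtr1 a peak covered the core printed above in 7 of 8 lists. For Yap1 a peak spanned all 30 bases around the core in 5 of 8. The Yap1 peak of the first P1 list (chr9:8004727-8004849) also covered the core, but not all 30 bases. Over the Tead3 cores a peak lay in 0 of 8 lists for the pair and in 4 of 8 for the single one. Neither the second E18.5 list nor the second P1 list held any Yap1 peak, and both second lists held fewer promoter peaks over all genes than the first.

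Ccn5 held no promoter peak in any of the 4 E18.5 and P1 lists and a single one in each of the 4 later lists. The same pattern was shown by 6.21% of the genes tested, and the later lists are the longer ones (35898 to 95257 peaks, against 13149 to 29281). With each list cut to its 13149 top-scoring peaks, Ccn5 held a promoter peak in 0 of the 8. The enrichment was 7.14 and 6.97 at P3 and 4.88 and 4.68 at P7, with summits 19 to 98 bases before a start. Those peaks stood between the 58.0 and 76.9 percentiles of their own lists. Ccn1 held weak peaks. Its highest enrichment was 3.99 in the first E18.5 list and 3.64 in the first P1 list, with no peak in the second list of either age, and 1.95 to 2.70 at P3 and P7. All of these were within the lowest 5.03 percent of their lists. They are not peaks of the same site. The E18.5 and P1 summits lay 145 and 1 bases after the start, and the P3 and P7 summits lay much farther from it. Peaks with a summit close to the start had an enrichment of 1.86 and 2.32 at P3 and 2.05 in the first P7 list. The second P7 list held none there. A peak covered the TEAD core of Ccn1 in 1 of 8 lists. For Ccn2 the enrichment was 5.80 and 6.57 at E18.5, then 4.23 and 4.34 (P1), 3.00 and 3.22 (P3) and 3.77 and 3.76 (P7), so the highest values stood at the age with the lowest RNA. Enrichment is set by each library's own background and was not compared by a test.

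**Figure D4:**
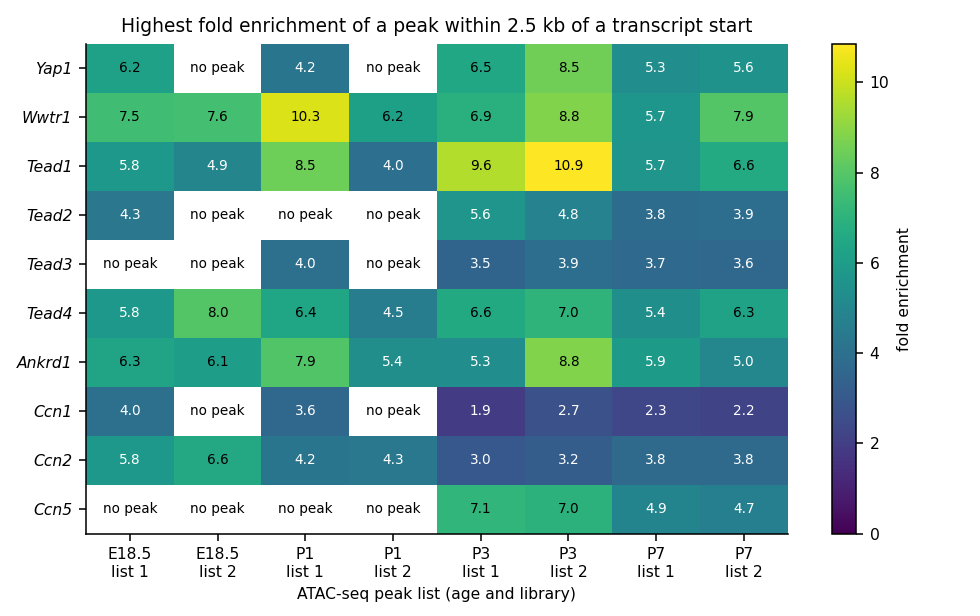
Highest fold enrichment (colour and number) of an ATAC-seq peak within 2.5 kb of a transcript start for each of the 10 genes (rows) in the 8 mouse peak lists (columns), with white cells where there is no peak. Ccn5 has no peak in the E18.5 and P1 lists and peaks of 4.68 to 7.14 at P3 and P7, while Ankrd1, Wwtr1, Tead1, Tead4 and Ccn2 have one in every list.

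The rat libraries asked how blocking histone deacetylases affects cardiomyocyte genes in culture. The libraries numbered 3 stood apart from the others of their group (Spearman 0.951 to 0.965 over genes, against 0.985 and 0.986 between numbers 1 and 2). Whether these cells also received the control siRNA that the study's methods describe beside TSA is not given in the sources used here. The transcript models of rat and mouse differ, so levels are not compared between the species. The summed FPKM of 11 cardiomyocyte markers was 13774 to 24169 in controls and 12116 to 34562 with TSA, that of 9 fibroblast markers 6940 to 7581 and 3875 to 6460, and that of 8 macrophage markers 481 to 1009 and 400 to 532.

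Only Ccn5 was called among the 10 members, beside 2.13% of the 13625 genes tested. It was at 59.6, 68.1 and 117 FPKM in the controls and at 36.9, 30.2 and 25.2 with TSA, with no overlap. It fell by 1.33 on the log2 scale (SE 0.27, adjusted p = 0.0455 by limma). Pairing the libraries by number gave differences of −0.68, −1.15 and −2.17, and without overlap any pairing must be negative. With the pairs as a block the adjusted p was 0.0729, so the call was lost. Without number 3 in both groups the fold change was −0.91 with an adjusted p of 0.00896, which passes the p threshold and not the fold threshold. Leaving out any other single library than the third control also ended the call (adjusted p 0.0842 to 0.171). Per 1000 FPKM of summed fibroblast markers, Ccn5 was at 8.59, 8.98 and 16.6 in controls and 5.71, 4.95 and 6.50 with TSA, still without overlap. That marker sum was also lower with TSA, though 0 of the 9 markers were called and their median log2 fold change was −0.12.

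Tead4 had the next smallest p among the members. It was at 2.55, 2.44 and 3.15 FPKM in controls and 4.29, 5.41 and 4.96 with TSA, and no libraries overlapped. The difference of 0.67 on the log2 scale missed the threshold (adjusted p = 0.0566 by limma, 0.064 with the pairs as a block). Tead2 was at 28.9, 31.7 and 22.7 in controls and 41.2, 39.4 and 33.3 with TSA, a difference of 0.44 (adjusted p = 0.17 by limma, and 0.0617 with the block). Its libraries did not overlap either, so for Tead2 and Tead4 any pairing must give positive differences. Tead1, Tead3, Yap1 and Wwtr1 differed by at most 0.14 in either direction, with overlapping libraries.

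The classical targets were dominated by the third pair. Ankrd1 was at 1469, 1179 and 2816 FPKM in controls and 1706, 1683 and 3249 with TSA, which is 0.31 higher on the log2 scale (SE 0.39, adjusted p = 0.721 by limma) and higher in 3 of 3 pairs. Ccn2 was at 231, 172 and 827 in controls and 177, 176 and 598 with TSA. Ccn1 was at 63.6, 43.1 and 159 in controls and 46.7, 55.2 and 64.6 with TSA. For Ccn1 and Ccn2 the difference was negative in 2 of 3 pairs, and neither passed the test (adjusted p of 0.628 and 0.874). The third libraries held the highest Ankrd1, Ccn1 and Ccn2 of both groups. In the pathway lists, limma called 0 genes of the Hippo cascade (16 tested), the YAP and TEAD partners (8), the other YAP targets (15) and the other CCN genes (2), with list medians of −0.08, 0.06, −0.08 and −0.73. An unadjusted p under 0.05 was reached by 3, 0, 1 and 1 of them, beside 2699 of all 13625 genes, and limma-voom called 1, 0, 0 and 0. The CCN gene was Ccn3, at 21.6, 17.6 and 38.7 FPKM in controls and 8.87, 9.58 and 17.8 with TSA, which was called with the pairs as a block (−1.03, adjusted p = 0.0262).

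**Figure D5:**
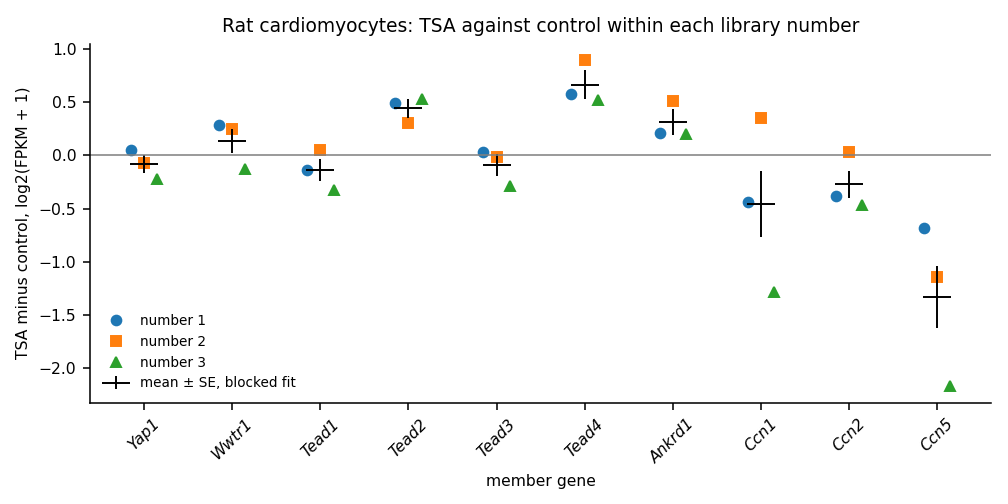
TSA minus control in log2(FPKM + 1) for each of the 10 genes in rat cardiomyocytes, with a symbol per numbered pair and a bar at the mean ± SE of the fit with the pairs as a block. Ccn5 is below 0 in all 3 pairs (−0.68 to −2.17), Tead2, Tead4 and Ankrd1 are above 0 in all 3, and Ccn1 spans 0.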

How the data were processed

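Cardiomyocyte libraries were grouped by age (mouse) or treatment (rat) from the sample labels, with the HiChIP libraries not analysed here. Per the file headers and the study's methods, the authors aligned reads with HISAT2 2.1.0 and ran StringTie on GENCODE vM21 (mm10) and Ensembl 103 (Rnor_6.0) transcripts, and the deposited files give FPKM, TPM and coverage per transcript. For ATAC-seq the authors trimmed reads, aligned them with bowtie2, removed duplicates and blacklisted peaks, and deposited 1 MACS2 list per library, with the score and the fold enrichment ratio of each peak.

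Here FPKM were summed per gene, and genes at 1 FPKM or more in at least 2 mouse or 3 rat libraries (13979 and 13625) were tested on log2(FPKM + 1) with limma 3.58.1 (R 4.3.3; lmFit, contrasts.fit, eBayes with a trend), two-sided, with Benjamini-Hochberg adjustment over all of them and all mouse ages in 1 fit. Read counts were not used here. A call needed both an adjusted p below 0.05 and a change larger than 1 on the log2 scale. The added 1 understates changes of low genes. Reads and depth were estimated from coverage and transcript length. Exon coverage was divided by aligned gigabases. Fits were tested on simulated data. The members and lists were chosen with earlier results of these data known. Of the pathway lists, called genes without overlap between groups were named, at most 6 per list and comparison by size of change, and for 6 members the 3 genes nearest by root mean square difference of centred log2 values. Alternatives were a pseudocount of 0.1, no filter, TPM, size factors by median of ratios, voom weights on estimated fragments (limma-voom), a replicate block, fits of only the ages compared, each library left out, equal numbers of top peaks, a 1 kb window and peak midpoints. In rat, deviations from the group means correlated between same-numbered libraries (r = 0.224, 0.194 and 0.346). Numbers 1 and 2 also correlated with each other across groups (r = 0.167 and 0.0904), and number 3 did not with either (−0.200 to −0.270). The values thus set number 3 apart more than they pair 1 with 1 and 2 with 2. The numbers, taken from the sample titles, were treated as pairs, although the labels state no pairing.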

Additional observations from a re-analysis of the deposited data

How the results depend on the processing

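The number of members called in mouse ranged over the alternatives as follows. At P1 against E18.5 it was 2, but 3 with TPM and 1 without the filter. At P3 it was 1, but 3 with TPM and 2 with limma-voom. At P7 it was 1, and 2 with TPM. For P7 against P1 it was 2, and 1 without the filter, and for P7 against P3 it was 2, but 0 without the filter and 1 in a fit of both ages alone. Leaving out 1 library gave 2 to 4 at P1, 1 to 2 at P3 and at P7 (each against E18.5), 0 to 1 for P3 against P1, and 1 to 2 for P7 against P3. In rat the 1 call (Ccn5) became 0 with a pseudocount of 0.1, without the filter, with size factors, with the replicate block and without number 3 in both groups (a choice made after the data were seen), and 0 to 1 with single libraries left out. The replicate block changed no member call in mouse, although the adjusted p of Yap1 rose to 0.0542 at P1 and 0.0600 at P7 and that of Ccn1 to 0.0552 at P3, where same-numbered libraries did not deviate together (r from −0.0964 to 0.171).

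Tead1 changed sign against E18.5 with TPM at P3 (0.023) and by internal exons (0.74, 0.97 and 1.00), and with single libraries left out it ran from −1.48 to 0.25 at P1, −1.07 to 0.66 at P3 and −1.31 to 0.42 at P7. In rat the same exercise gave −0.00097 to 0.68 for Ankrd1, −0.86 to 0.41 for Ccn2 and −0.86 to 0.070 for Ccn1. The exact p for the Yap1 share ran from 0.019 to 0.143. Members with a promoter peak were 5 to 8 at E18.5 and at P1 with a list left out, and 4 at P3 and 5 at P7 with equal numbers of peaks. With a 1 kb window they were 9 at P7. Apart from the reasons that follow from fewer libraries, fewer peaks or more genes tested, the cause was not tested. In mouse, the fewest estimated reads stood behind Tead4 and behind Ccn5 at E18.5 and P1.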

Other observations

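Genes whose course over the 8 mouse libraries was nearest to a member, by the root mean square difference of centred log2(FPKM + 1), are given as a description. Ankrd1 was nearest to Lrrc3b (0.19) and Fuca2 (0.20). Lrrc3b, a leucine-rich repeat gene, had mean FPKM of 1.41 before birth, 6.65 on P1, 3.51 on P3 and 1.23 on P7. Ccn2 was nearest to Itga4, an integrin subunit, and to the replication genes Mcm2 and Clspn. Mcm2 averaged 18.2 before birth, then 34.5, 37.5 and 33.3. Ccn5 had no close neighbour, the nearest being Plac8 at 0.86, Tmem45a at 0.92 and Ptx3 at 0.93. Yap1 was nearest to Minpp1, Zfp41 and Dync1h1, each at 0.05. By gene FPKM Tead1 was nearest to Rac2 (0.15), Was (0.20) and Laptm5 (0.23), all known from blood cells, whose means were also highest at E18.5. The high Tead1 mean at E18.5 rested on the second library alone (2.28 and 9.90 FPKM), and by internal exons Tead1 was lowest at that age.

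The split of a gene's FPKM among its transcripts differed between libraries of the same age. For mouse Ankrd1, ENSMUST00000025718.9 was listed at 0 in 6 libraries but held 511 FPKM in the second P1 library and 344 in the first P3 library, with ENSMUST00000237142.1 holding most of the level in the rest. The latter holds both TEAD cores in its first exon. For rat Tead2, the third control had 22.7 FPKM on ENSRNOT00000028086 and 0 on ENSRNOT00000090838, while the other 5 libraries had 28.9 to 41.1 on the second and at most 0.098 on the first. For mouse Tead2, ENSMUST00000033060.13 held 33.2 of the 43.4 FPKM of the first P1 library and 1.17 to 8.86 in the other 7, so that library's high total came with a different transcript.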
